A study of Mus musculus with 6 samples.

Results

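The genes that copy DNA and carry cells through mitosis were examined in mouse embryonic fibroblasts (MEFs) with and without H2AX. The set held 51 genes, listed by name and role, and was read from the deposited array values. A gene was taken where the array annotation gave a probe set with that single gene symbol. Where several did, the brightest on average across the 6 arrays was used. Of the 51 genes, 50 were measured, among 19938 genes in all. The exception was Ccnb1, cyclin B1, which had no probe set with that single symbol in the annotation used and is not analysed here.

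RNA came from 3 samples of wild-type (WT) MEFs and 3 samples of H2AX knockout (H2AX KO) MEFs, cultured from wild-type and H2AX mutant mice and given no special treatment, with 1 Affymetrix Mouse Gene ST array for each sample. Strain, age, sex and passage of the cells were not given in the sources used here, nor which embryo or culture each replicate came from. The study describes the replicates as independent, without saying what was independent, and the p-values cover the spread between these arrays. Values are log2 expression values, on which a difference of 1 is a fold-change of 2. H2AX KO was compared with WT by limma, and p-values were adjusted by the Benjamini-Hochberg method across the 19938 genes. The words rose and fell are kept for an adjusted p under 0.05, and the 95% confidence intervals given are unadjusted.

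The transcript of the targeted gene, H2ax, was lower on every KO array, at 8.96, 9.18 and 9.003 in WT and 7.69, 7.77 and 7.67 in KO cells (log2 fold change -1.34, adjusted p = 5.8e-07). The sources used here do not place its probes inside or outside the deletion. The Y-linked genes Eif2s3y, Kdm5d and Uty had mean log2 values of 7.80 to 8.09 in WT and 4.05 to 4.92 in KO cells, while Xist, which is transcribed in female cells, had 4.53 and 4.56. Differences in Y-linked expression and in genotype cannot be told apart in these arrays. Of 10 fibroblast markers, 5 rose and 3 fell, the largest being Thy1 (log2 fold change 4.03), Fap (-2.57) and Dcn (-2.15), while Vim had 13.21 in WT and 13.14 in KO cells. The 8 leukocyte, 4 endothelial and 4 epithelial markers had group means between 3.98 and 6.98. Among these 16 markers, Cd68 rose from 6.61 to 6.90 (adjusted p = 0.025) and Cdh5 fell from 5.58 to 5.11 (adjusted p = 0.0087). The defining leukocyte gene Ptprc was at 5.22 and 5.20, and the part of these marker genes in the results on replication and mitosis was not tested.

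Replication is prepared in G1, when CDC6 and CDT1 load the MCM2-7 helicase on origins. It starts in S phase, when CDC45 and the GINS complex join the helicase and polymerases follow. The step from G1 to S is driven by D- and E-type cyclins, which free E2F factors from the retinoblastoma protein, and E2F factors transcribe most of the replication genes. Later, cyclins A and B with CDK1, and the factor FOXM1, drive the genes of G2 and mitosis, and many of those promoters carry CCAAT boxes and a cell cycle genes homology region (CHR). Transcripts of many, but not all, of these genes are more abundant in dividing fibroblasts than in resting ones.

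As a set, the replication and mitosis genes did not move one way. Of the 50 measured genes, 12 rose, 7 fell and 31 did not pass the test in H2AX KO cells. The share that passed was 38%, against 33.4% of all genes tested. The share of members that rose was 24%, against 18.4% of all genes, and the share that fell was 14%, against 15.0%. Only Ccnd2 among the 12 and only E2f8 among the 7 passed a fold-change over 2, where 2.12% of all genes rose and 3.18% fell by that much (5.30% together). The median log2 fold change of the 50 genes was 0.04, beside 0.02 over all genes. In 23 genes, or 46%, the 3 KO and the 3 WT values did not overlap, against 44.8% of all genes. Out of all 50 genes, KO was higher without overlap in 14 and lower in 9, where 25.3% and 19.5% of all genes were. In bulk RNA, fewer dividing cells and less of a transcript in each cell cannot be told apart.

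All 50 genes lay above the median level of the arrays, with a mean between the 57.0th and 98.9th percentile of all genes. More genes passed at such levels, and of the 9969 genes above the median level 53.1% passed, 29.9% upward and 23.2% downward. The median absolute log2 fold change was 0.13 in the set, 0.13 over all genes and 0.26 over the genes above the median level. These shares are a description, with no test between the sets. Of the 31 genes that did not pass, the 95% confidence intervals of the log2 fold change lay between -0.47 and 0.37. That is within a fold-change of 1.5 in either direction, but these genes were picked by the same test, which favours intervals near 0. Of all 50 genes, 40 (80.0%) had an interval within that limit, against 79.5% of all genes and 66.4% of the genes above the median level.

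**Figure D1:**
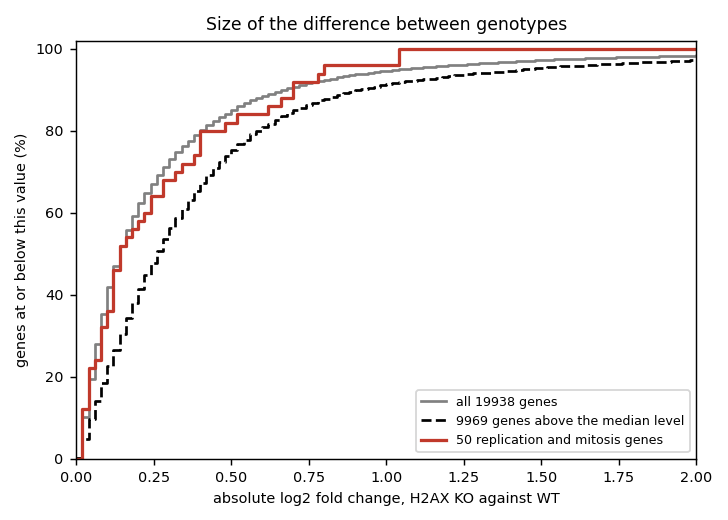
Absolute log2 fold change between H2AX KO and WT MEFs on the x axis, and the percent of genes at or below that value on the y axis, for the 50 replication and mitosis genes (red), all 19938 genes (grey) and the 9969 genes above the median level (dashed). The medians are 0.13, 0.13 and 0.26, and the red line reaches 100% at 1.04.

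**Figure D2:**
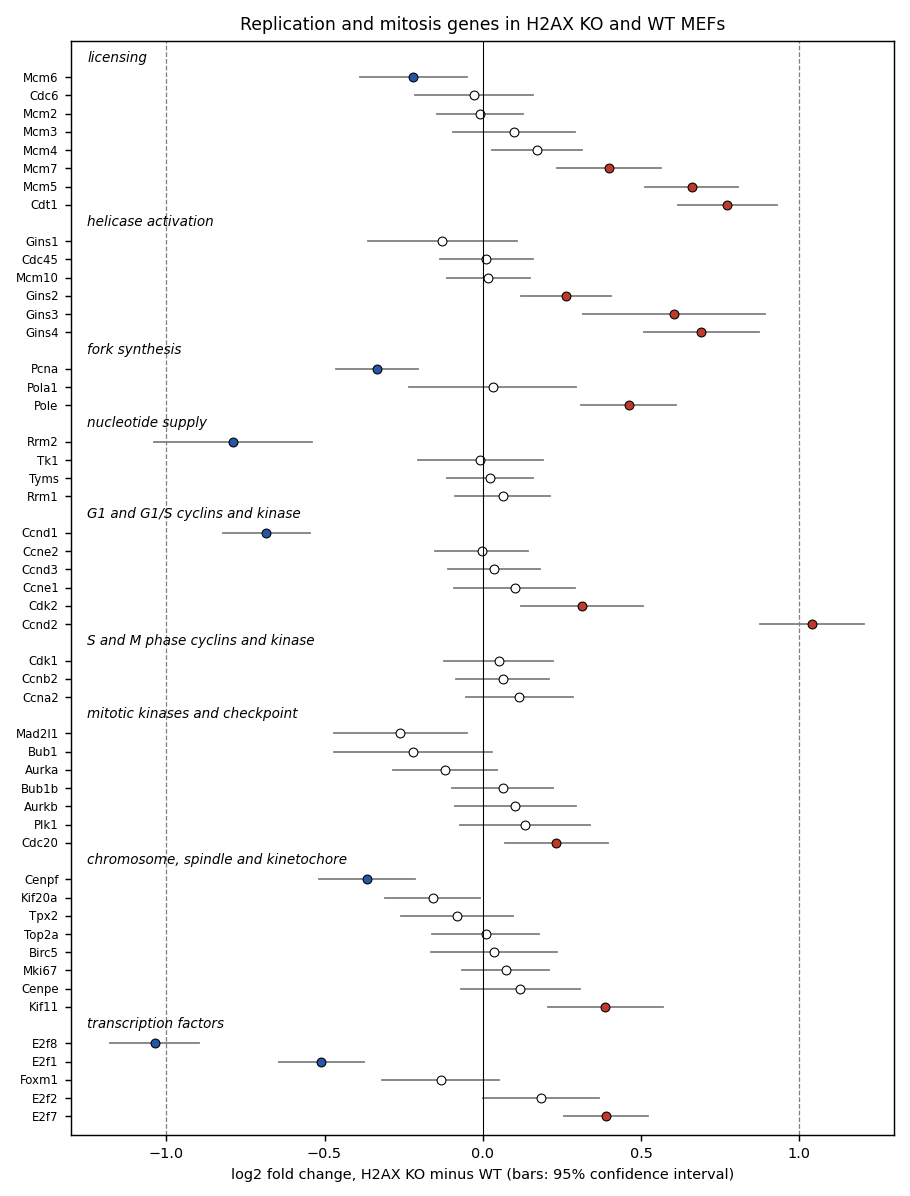
Log2 fold change of H2AX KO minus WT MEFs on the x axis for each of the 50 genes, by role, with bars for the 95% confidence interval from limma. Red points rose and blue points fell at an adjusted p under 0.05, open points did not pass, and dashed lines mark a fold-change of 2. Red and blue points occur together in 5 of the 9 role groups, while the group of S and M phase cyclins and kinase holds open points only.

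For 37 of the 50 genes, RefSeq gave the promoter (build GRCm38.p6). The 250 bases before the first listed start were searched on both strands for E2F words (TTTCCCGC, TTTCGCGC, TTTGCCGC or TTTGGCGC), CHR words (TTTGAA or TTCGAA) and CCAAT. An E2F word was found in 9 of the 37 promoters (24.3%), against 1.91% of the 27025 promoters of all genes. A CHR word was found in 12 (32.4%, against 17.4%) and CCAAT in 28 (75.7%, against 34.5%). Among the genes with a promoter, E2F words stood in 5 of the 8 that rose, in 1 of the 6 that fell and in 3 of the 23 that did not pass. No promoter was given for Ccnd2, Gins2, Gins4 and Pole, which rose, or for Ccnd1, which fell. The share with E2F words among all genes that rose or fell was not counted. Other starts of a gene were not searched, and the first listed start may lie inside the gene. E2f1, which fell, was counted as without an E2F word on that window alone, so the counts by direction can miss words. These counts describe letters in a short window and show neither a binding site nor a cause. The helicase subunits Mcm5, Mcm6 and Mcm7 are printed because all carry E2F words while Mcm6 differed from the others in direction, and E2f7 and E2f8 because these related factors moved apart. Capitals mark the E2F words, CHR words and CCAAT boxes, read on either strand.
Mcm5, GRCm38.p6 chr8:75109259-75109508, plus strand: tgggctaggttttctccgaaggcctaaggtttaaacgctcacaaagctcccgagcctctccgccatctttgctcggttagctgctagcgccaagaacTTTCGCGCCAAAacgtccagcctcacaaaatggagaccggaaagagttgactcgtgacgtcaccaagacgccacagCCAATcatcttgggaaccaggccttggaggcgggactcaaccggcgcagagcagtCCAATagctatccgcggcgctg
Mcm6, GRCm38.p6 chr1:128359706-128359955, minus strand: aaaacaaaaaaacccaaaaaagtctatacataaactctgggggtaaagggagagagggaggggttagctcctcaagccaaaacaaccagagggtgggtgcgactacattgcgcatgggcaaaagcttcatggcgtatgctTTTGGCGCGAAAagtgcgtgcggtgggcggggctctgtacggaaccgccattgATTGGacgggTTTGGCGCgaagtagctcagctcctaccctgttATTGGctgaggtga
Mcm7, GRCm38.p6 chr5:138171884-138172133, minus strand: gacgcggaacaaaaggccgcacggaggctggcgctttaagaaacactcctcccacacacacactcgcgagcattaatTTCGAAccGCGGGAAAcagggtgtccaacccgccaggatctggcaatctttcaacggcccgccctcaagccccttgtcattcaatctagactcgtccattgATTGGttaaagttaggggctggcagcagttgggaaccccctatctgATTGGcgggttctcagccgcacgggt
E2f7, GRCm38.p6 chr10:110745189-110745438, plus strand: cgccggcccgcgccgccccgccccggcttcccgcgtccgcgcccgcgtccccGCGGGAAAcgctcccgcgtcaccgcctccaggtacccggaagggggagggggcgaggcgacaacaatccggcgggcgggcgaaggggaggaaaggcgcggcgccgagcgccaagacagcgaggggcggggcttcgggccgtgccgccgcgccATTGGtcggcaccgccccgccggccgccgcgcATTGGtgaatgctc
E2f8, GRCm38.p6 chr7:48881597-48881846, minus strand: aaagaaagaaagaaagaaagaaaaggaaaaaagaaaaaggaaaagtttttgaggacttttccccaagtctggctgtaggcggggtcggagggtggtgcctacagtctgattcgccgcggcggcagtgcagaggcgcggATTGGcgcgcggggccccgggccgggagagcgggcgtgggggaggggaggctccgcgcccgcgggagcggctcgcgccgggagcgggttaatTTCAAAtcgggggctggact

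The promoter of Mcm5 held 1 capital stretch with E2F words, 153 bases before the start, where words on both strands overlap. That of Mcm6 held 2 such stretches, 110 and 47 bases before the start, and that of Mcm7 held 1 at 165 bases. The E2f7 promoter held an E2F word at 198 bases and 2 CCAAT boxes. In that of E2f8 none of the E2F words was found, and 1 CHR word and 1 CCAAT box were.

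The D-type cyclins, which bind CDK4 and CDK6 and pass growth signals to the cell cycle, moved in opposite directions. Ccnd2 had log2 values of 10.84, 10.87 and 10.94 in WT and 12.02, 11.80 and 11.94 in KO cells. It rose by 1.04 (standard error 0.07, adjusted p = 3.1e-06), with every KO array above every WT array, and by 0.99 without KO replicate 1, which is under a fold-change of 2. Ccnd1 had 11.76, 11.84 and 11.86 in WT and 11.17, 11.10 and 11.14 in KO cells. It fell by 0.68 on the log2 scale (standard error 0.06, adjusted p = 1.7e-05), again without overlap. Ccnd3, the remaining D-type cyclin, had means of 9.53 and 9.57, and the 95% interval of its difference was -0.11 to 0.18. Among the partners of the next step, Cdk2, the kinase of cyclins E and A, had 8.74, 8.999 and 8.98 in WT and 9.26, 9.12 and 9.28 in KO cells. Cdk2 rose by 0.31 (adjusted p = 0.018), and did not pass without KO replicate 1 (adjusted p = 0.053) or KO replicate 3 (adjusted p = 0.075), over a range of 0.0049 to 0.10 in all alternatives. The E-type cyclins Ccne1 and Ccne2 had log2 fold changes of 0.10 (interval -0.09 to 0.29) and -0.0038 (interval -0.15 to 0.14).

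The E2F factors also differed among themselves. E2f8, an atypical E2F that represses its targets, had 9.54, 9.65 and 9.62 in WT and 8.60, 8.58 and 8.53 in KO cells. It fell by 1.04 on the log2 scale (standard error 0.06, adjusted p = 9.5e-07), a fold-change of 2.05 and the largest fall of the set. E2f7, the other atypical repressor, had 8.93, 9.01 and 8.98 in WT and 9.35, 9.39 and 9.36 in KO cells, and rose by 0.39 (standard error 0.06, adjusted p = 0.00064). The 2 repressors thus moved apart, each without overlap between the genotypes. E2f1, an activator of the G1 to S step, had 9.27, 9.36 and 9.36 in WT and 8.80, 8.82 and 8.84 in KO cells, and fell by 0.51 (standard error 0.06, adjusted p = 0.00011). E2f2, another activator, had a log2 fold change of 0.18 (interval 0.0018 to 0.37, adjusted p = 0.12). Foxm1, the factor of G2 and mitotic genes, had WT values of 9.55 to 9.74 and KO values of 9.39 to 9.65, with a log2 fold change of -0.13 (interval -0.32 to 0.05, adjusted p = 0.27).

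Among the genes that load the helicase, 3 of 8 rose and 1 fell, that is, 4 of 8 passed, where 53.1% of the genes above the median level did. Cdt1, which brings the helicase to origins, had 8.96, 8.96 and 9.13 in WT and 9.78, 9.84 and 9.75 in KO cells. It rose by 0.77 (standard error 0.07, adjusted p = 1.8e-05), the second largest rise of the set. Cdc6, its partner in loading, had a log2 fold change of -0.03 (interval -0.21 to 0.16).
The subunits of the MCM2-7 ring, which are present in equal numbers in the helicase, did not move together. Mcm5 had 9.72, 9.87 and 9.84 in WT and 10.44, 10.49 and 10.48 in KO cells, and rose by 0.66 (standard error 0.06, adjusted p = 3.3e-05). Mcm7 had 9.85, 10.05 and 10.03 in WT and 10.40, 10.31 and 10.41 in KO cells, and rose by 0.40 (adjusted p = 0.0020). For both, all KO arrays lay above all WT arrays. Mcm6 had 9.98, 10.14 and 10.02 in WT and 9.91, 9.72 and 9.84 in KO cells, and fell by 0.22 (adjusted p = 0.049). This last call was close to the threshold: it was lost without WT replicate 1, 2 or 3 or KO replicate 2 or 3 (adjusted p = 0.0504 to 0.18), over a range of 0.014 to 0.18 in all alternatives. Mcm2, Mcm3 and Mcm4 had log2 fold changes of -0.0093, 0.10 and 0.17 and did not pass. For Mcm4 the genotypes did not overlap (adjusted p = 0.066), and it passed after quantile normalization (adjusted p = 0.049, over a range of 0.049 to 0.19 in all alternatives).

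Of the 6 genes that turn the loaded helicase into an active one, 3 rose, all from the GINS complex, and none fell, against the same 53.1%. In the methods' one-way ANOVA, a test without moderation across genes, 2 of them rose. Gins4 had 9.40, 9.57 and 9.44 in WT and 10.22, 10.01 and 10.24 in KO cells, and rose by 0.69 (standard error 0.08, adjusted p = 0.00012). Gins3 had 7.28, 7.65 and 7.63 in WT and 8.34, 7.89 and 8.14 in KO cells, and rose by 0.60 (standard error 0.13, adjusted p = 0.0048). The spread of Gins3 was wide in both genotypes, and it did not pass in the methods' one-way ANOVA (adjusted p = 0.088, over a range of 0.00086 to 0.088 in all alternatives). Gins2 had 8.77, 8.80 and 8.87 in WT and 9.06, 9.14 and 9.03 in KO cells, and rose by 0.26 (adjusted p = 0.0097). Gins1, the fourth subunit, had a log2 fold change of -0.13, with an interval of -0.36 to 0.11. Cdc45, which completes the active helicase, and Mcm10, which is needed for its activation, had log2 fold changes of 0.01 and 0.02, with intervals from -0.14 to 0.16 and from -0.11 to 0.15.

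**Figure D3:**
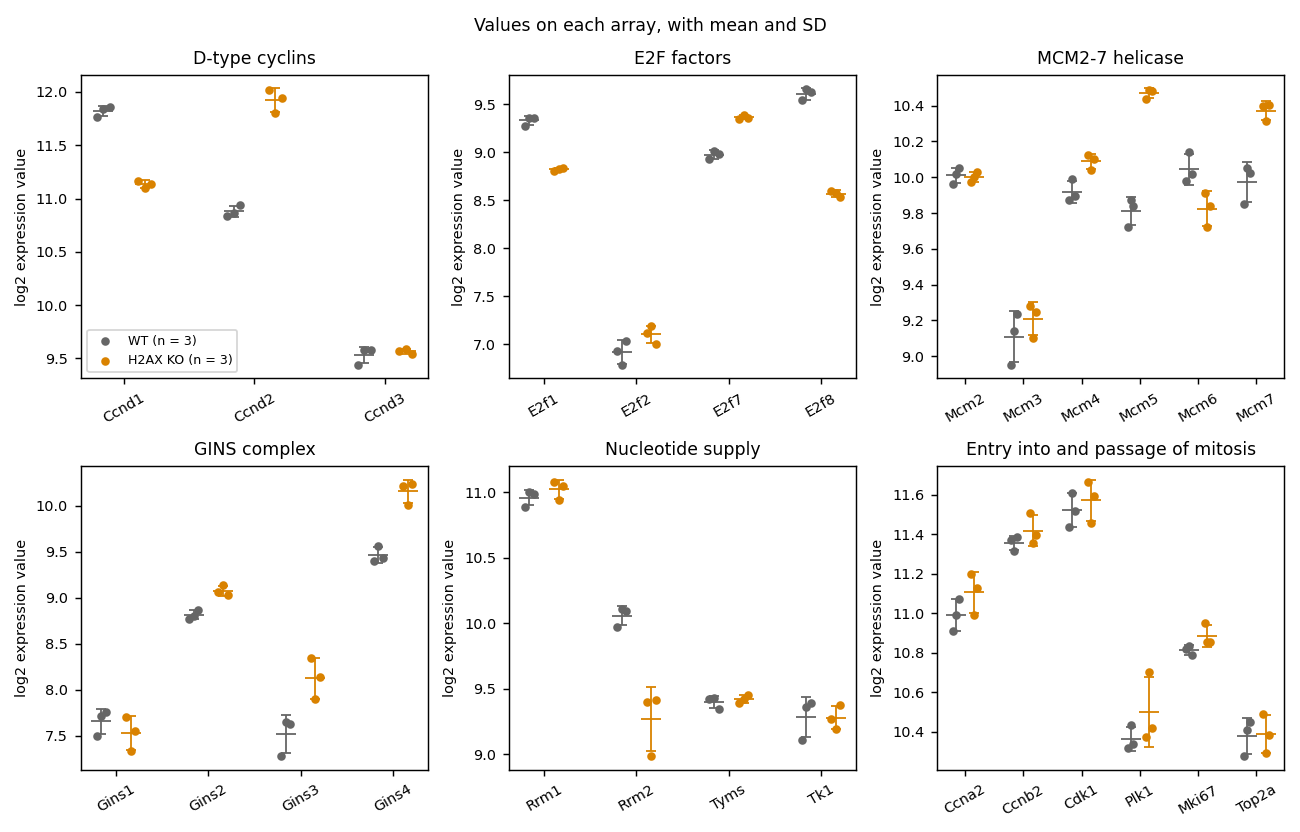
Log2 expression value on the y axis for each WT array (grey points) and each H2AX KO array (orange points), with the mean and SD of the 3 arrays, for 6 groups of genes. Ccnd1 and Ccnd2, E2f7 and E2f8, and Mcm5 and Mcm6 moved in opposite directions, whereas in the panel of mitosis the grey and orange points overlap for each gene except Mki67.

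Counted together, the 21 genes of licensing, helicase activation, fork synthesis and nucleotide supply held 7 that rose, 3 that fell and 11 that did not pass, beside 53.1% passing among the genes above the median level. Genes of DNA synthesis moved both ways. Pcna, the sliding clamp that holds polymerases on DNA, had 11.54, 11.59 and 11.58 in WT and 11.25, 11.22 and 11.25 in KO cells, and fell by 0.33 (standard error 0.06, adjusted p = 0.0014). A further probe set of Pcna gave a difference of -0.34. Pole, the catalytic subunit of the leading-strand polymerase, had 8.82, 9.01 and 8.90 in WT and 9.36, 9.37 and 9.37 in KO cells, and rose by 0.46 (adjusted p = 0.00047). Pola1, the catalytic subunit of the polymerase that makes primers, had a log2 fold change of 0.03 (interval -0.23 to 0.30).
Rrm2, the regulated subunit of ribonucleotide reductase, which makes deoxyribonucleotides, had 9.97, 10.11 and 10.09 in WT and 9.40, 8.99 and 9.42 in KO cells. It fell by 0.79 on the log2 scale (standard error 0.11, adjusted p = 0.00039), a fold-change of 1.73. All 3 KO arrays lay below WT, with KO replicate 2 the lowest. Rrm1, the other subunit of that enzyme, had a log2 fold change of 0.06 (interval -0.09 to 0.21). Tyms and Tk1, which supply thymidine nucleotides, had log2 fold changes of 0.02 (interval -0.11 to 0.16) and -0.0082 (interval -0.20 to 0.19). A further probe set of Tk1 gave a difference of -0.10.

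Of the 18 genes of S and M phase, mitosis and chromosomes, 2 rose, 1 fell and 15 did not pass. The share that passed was 33.4% of all genes and 53.1% of the genes above the median level, where these genes lay. None of the 3 measured cyclin and kinase genes of S and M phase passed. Ccna2 had 10.91, 10.99 and 11.07 in WT and 11.20, 10.99 and 11.13 in KO cells, a log2 fold change of 0.12 (interval -0.05 to 0.28, adjusted p = 0.30). It passed only after quantile normalization of the arrays (adjusted p = 0.029, over a range of 0.029 to 0.60 in all alternatives). Cdk1, the kinase that starts mitosis, had 11.44, 11.61 and 11.52 in WT and 11.66, 11.46 and 11.59 in KO cells, with a log2 fold change of 0.05 (interval -0.12 to 0.22), and Ccnb2 had 0.06 (interval -0.08 to 0.21). The genotypes overlapped for each of these genes.

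Of 7 mitotic kinases and checkpoint genes, 1 rose and none fell, where 53.1% of the genes above the median level passed. Cdc20, the activator of the anaphase-promoting complex, had 9.37, 9.56 and 9.45 in WT and 9.61, 9.74 and 9.72 in KO cells, and rose by 0.23 (adjusted p = 0.034). It did not pass without WT replicate 1 or 3 or KO replicate 2 or 3 (adjusted p = 0.074 to 0.12, over a range of 0.024 to 0.12 in all alternatives). Mad2l1, which holds CDC20 inactive until chromosomes are attached, had the largest difference of this group, at 10.60, 10.63 and 10.60 in WT and 10.50, 10.13 and 10.42 in KO cells. Its log2 fold change was -0.26 (adjusted p = 0.059), with KO replicate 2 the lowest, and -0.15 without that array. It passed without KO replicate 1 (adjusted p = 0.022), with the trend in the variance prior, after quantile normalization and without the dimmest 50% of genes (adjusted p = 0.044 to 0.0498), over a range of 0.022 to 0.20 in all alternatives. Bub1, a kinase of the same checkpoint, had -0.22 (adjusted p = 0.17) and passed without KO replicate 1 as well (adjusted p = 0.028, over a range of 0.028 to 0.46). Bub1b, Aurka, Aurkb and Plk1 had log2 fold changes of 0.06, -0.12, 0.10 and 0.13, and their intervals lay between -0.28 and 0.34.

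Of 8 genes of chromosome structure, spindle and kinetochore, 1 rose and 1 fell, where 53.1% of the genes above the median level passed. Kif11, the motor that separates spindle poles, had 9.89, 10.04 and 9.91 in WT and 10.42, 10.19 and 10.39 in KO cells, and rose by 0.39 (standard error 0.08, adjusted p = 0.0043). Cenpf, a kinetochore protein of late cell cycle, had 8.50, 8.64 and 8.63 in WT and 8.27, 8.15 and 8.24 in KO cells, and fell by 0.37 (adjusted p = 0.0021). The proliferation marker Mki67 had 10.82, 10.84 and 10.79 in WT and 10.95, 10.85 and 10.85 in KO cells. Its log2 fold change was 0.07 (interval -0.06 to 0.21, adjusted p = 0.43), although its groups did not overlap. Top2a, the topoisomerase that untangles chromosomes, had a log2 fold change of 0.0091 (interval -0.16 to 0.18). A further, much dimmer probe set of Top2a, with means of 4.49 in WT and 4.57 in KO cells, gave a difference of 0.08. Birc5, a subunit of the chromosomal passenger complex, had a log2 fold change of 0.04 (interval -0.16 to 0.24). Tpx2, Cenpe and Kif20a had -0.08, 0.12 and -0.16. Of these, Kif20a passed without KO replicate 1 (adjusted p = 0.047, over a range of 0.047 to 0.29) and Cenpe without KO replicate 2 (adjusted p = 0.041, over a range of 0.041 to 0.69).

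Arrays of a genotype differed in the median position of the whole set. Taken as the median difference from the WT mean over the 50 genes, the WT arrays stood at -0.07, 0.04 and 0.03 and the KO arrays at 0.12, -0.01 and 0.05, so that the genotypes overlapped. WT replicate 1 was the lowest WT array in each of the 9 role groups. KO replicate 2 was the lowest KO array in 7 of the 9. Over the 50 genes the Euclidean distance between KO replicates 1 and 3 was 0.55 log2 units. Those to KO replicate 2 were 1.44 and 1.12. Between WT replicates 2 and 3 the distance was 0.62, and those to WT replicate 1 were 1.05 and 1.05. Distances between genotypes lay between 2.59 and 3.00.

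**Figure D4:**
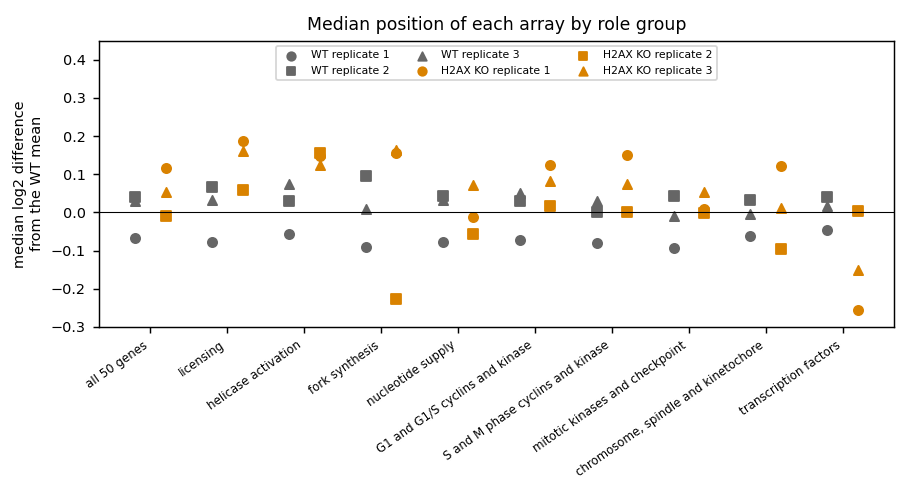
Median log2 difference of each array from the WT mean on the y axis, over all 50 genes and over the genes of each role group, with grey for WT, orange for H2AX KO and the shape for the replicate number. Over all 50 genes the WT arrays lie between -0.07 and 0.04 and the KO arrays between -0.01 and 0.12, and overlap.

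Neighbouring genes of the same pathways, 132 measured on lists outside the set, rose more often than they fell, with 46 higher, 17 lower and 69 not passing, and a median log2 fold change of 0.14. Over all genes tested, 18.4% rose and 15.0% fell. However, 130 of the 132 genes lay above the median level of the arrays, where 29.9% rose and 23.2% fell, against 34.8% and 12.9% on these lists. Of 26 polymerase and fork genes, 12 rose and 3 fell (10 to 15 and 2 to 3 when each array was left out in turn, and 8 and 1 in the one-way ANOVA). Pold4 and Pold2, subunits of the lagging-strand polymerase, rose by 0.76 (adjusted p = 1.4e-05) and 0.69 (adjusted p = 1.5e-05), while Pole2 and Pole4, subunits of the same polymerase as Pole, fell by 0.76 (adjusted p = 3.5e-05) and 0.43 (adjusted p = 0.0036). Pole4 did not pass in the one-way ANOVA (adjusted p = 0.053). Pole3, a further subunit of the same polymerase as Pole, rose by 0.23 (adjusted p = 0.036). Of 9 genes of origin recognition and firing, 1 rose and 2 fell, among them Orc4 at -0.56 (adjusted p = 0.0051) and Orc2 at -0.27 (adjusted p = 0.016). Orc1 had 0.30 (adjusted p = 0.024). With 1 array left out, the counts of this list lay between 0 and 3 upward and 1 and 3 downward. None of these 3 genes passed in the one-way ANOVA. Orc1 also did not pass without WT replicate 1 or 3 or KO replicate 1 or 3 (adjusted p = 0.067 to 0.097), nor Orc2 without WT replicate 2 (adjusted p = 0.074).

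Of 40 further genes of spindle, kinetochore and cytokinesis, 11 rose and 5 fell, where 53.1% of the genes above the median level passed. There were 17 higher without KO replicate 2, 3 lower without WT replicate 2, and 6 higher and 2 lower in the one-way ANOVA. Ckap2, a spindle protein, and Cenpn, a kinetochore protein, rose by 0.74 and 0.64, and the kinetochore genes Zwint and Spc25 fell by 0.73 and 0.54 (adjusted p = 0.00013 to 0.00094). Of 16 condensin and cohesin genes, 7 rose and 1 fell, against the same 53.1%, with Smc3 at 0.68 and Ncapd2 at 0.48 upward. When each array was left out in turn, 5 to 8 rose and 0 to 1 fell, and in the one-way ANOVA 5 rose and 0 fell. The one that fell, Sgo2a, a protector of cohesin, had -0.46 (adjusted p = 0.017) and did not pass without WT replicate 2 or 3 (adjusted p = 0.058 and 0.060) or in the one-way ANOVA (adjusted p = 0.14). Without KO replicate 2 its log2 fold change was -0.29.
Of 20 genes of the anaphase-promoting complex and its substrates, 6 rose and 2 fell, where 53.1% of the genes above the median level passed. Only 1 fell without WT replicate 3 or KO replicate 1 or 3. When each array was left out in turn, 4 to 8 of them rose, and in the one-way ANOVA 5 rose and 2 fell. Pttg1, securin, which blocks the separation of sister chromatids until it is degraded, had 7.37, 7.40 and 7.28 in WT and 9.48, 9.28 and 9.43 in KO cells. It rose by 2.05 (standard error 0.07, adjusted p = 2.7e-08), the largest rise on these lists. Anapc13 rose by 0.71 and Cdc27 fell by 0.39, both subunits of the complex, and Ube2s, its chain-extending enzyme, had -0.25 (adjusted p = 0.016, and 0.051 to 0.077 without WT replicate 3 or KO replicate 1 or 3).

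Among 15 other E2F, pocket protein and MuvB genes, 5 rose and 3 fell, where 53.1% of the genes above the median level passed. Only 3 rose without WT replicate 1, WT replicate 2 or KO replicate 3 and in the one-way ANOVA. E2f6, a repressor E2F, had 8.82, 8.89 and 8.89 in WT and 7.84, 7.13 and 7.83 in KO cells, and fell by 1.27 on the log2 scale (standard error 0.16, adjusted p = 0.00022). Tfdp2, a dimer partner of E2F factors, rose by 1.00 (adjusted p = 7.6e-06), and Rbl2, the pocket protein p130, rose by 0.77 (adjusted p = 5.6e-05). E2f3, an activator E2F, fell by 0.41 (adjusted p = 0.00060). Of 6 measured CDK inhibitors, 4 rose and 1 fell, where 33.4% of all genes and 53.1% of those above the median level passed. Of these inhibitors, 3 to 4 rose when each array was left out and 2 in the one-way ANOVA. Cdkn2a, which encodes p16 and p19ARF, had 8.28, 8.06 and 8.29 in WT and 10.16, 10.35 and 10.12 in KO cells, and rose by 2.00 (standard error 0.09, adjusted p = 9.6e-08). Cdkn2c, the inhibitor p18, rose by 0.92 (adjusted p = 6.5e-06) and Cdkn2b, the inhibitor p15, fell by 0.47 (adjusted p = 0.0012). The part of these inhibitors in the values of the 50 genes was not tested.

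**Figure D5:**
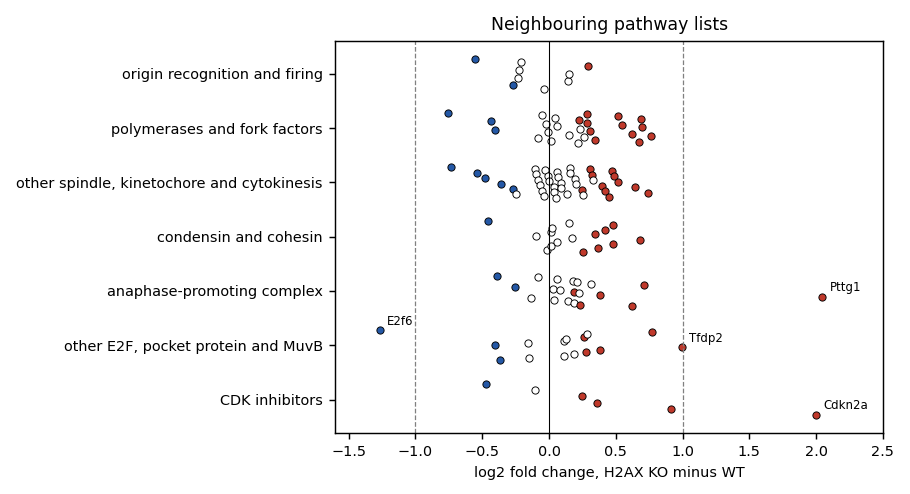
Log2 fold change of H2AX KO minus WT MEFs on the x axis per gene measured on 7 neighbouring pathway lists, with 1 point per gene (vertical position within a list has no meaning). Red points rose and blue points fell at an adjusted p under 0.05 from limma, open points did not pass, and dashed lines mark a fold-change of 2. Pttg1 at 2.05 and Cdkn2a at 2.00 lie farthest to the right and E2f6 at -1.27 farthest to the left.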

How the data were processed

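Total RNA of 3 WT and 3 H2AX KO MEF samples was hybridised by the authors to Affymetrix arrays, and per the labels and methods Affymetrix Expression Console and Partek (version 6.6) were used to process and normalize them. The authors deposited 1 log2 value for each of 35556 probe sets and array, and the array medians lay between 6.06 and 6.12. How background was corrected is not stated in the sources used here, and normalization hides any change in total RNA. The array is called Mouse Gene 2.0 ST in the methods, but its probe set identifiers matched the annotation of version 1.0.

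Of 23410 annotated probe sets, 21789 carried 1 symbol, and symbols were updated through RefSeq gene identifiers (21698 matched, assembly GRCm38.p6). Probe sets with several symbols (1621) or no entry (12146) were left out. Genes were compared with limma (version 3.58.1, R version 4.3.3) by lmFit and eBayes without covariates, and checked on simulated data. The members and lists were chosen with earlier results of these data known. Members were named with values on each array for the 20 largest called differences (19 were called) and the largest of each role group, and pathway genes for the 2 largest rises and falls of a list. Other members named, and Pole3, were chosen after their values were seen, as were the limit of 1.5 on the intervals and the comparison with genes above the median level. The number of arrays limits the precision. The alternatives were a replicate block, leaving out each array, the methods' one-way ANOVA without moderation, a variance prior with trend, median centring, quantile normalization, testing without the dimmest 50% of genes, averaging a gene's probe sets, and a fold-change over 1.5.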

Additional observations from a re-analysis of the deposited data

How the results depend on the processing

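Over the alternatives run, the count of members that rose lay between 9 (one-way ANOVA) and 14 (quantile normalization), and that of members that fell between 6 and 10 (without KO replicate 1), against 12 and 7. In the one-way ANOVA the calls of Gins3, Cdk2, Cdc20 and Mcm6 were lost (adjusted p = 0.088, 0.10, 0.094 and 0.12). Of the 132 pathway genes, 29 rose and 8 fell in that test, against 46 and 17. With a fold-change over 1.5 in place of 2, 5 members rose and 3 fell in place of 1 and 1. When each array was left out, the number that rose by a fold-change over 2 lay between 0 and 1. The median log2 fold change of the set lay between 0.0098 and 0.091, and the number of members without overlap between 24 and 33 when an array was left out, where fewer arrays leave less room for overlap. Whether the replicate number pairs the arrays is not given in the sources used here. The deviations of equal-numbered arrays from the mean of their genotype correlated at -0.29, -0.24 and 0.08. None of the WT arrays correlated best with the KO array of its own number. Such correlations cannot decide the pairing, because deviations from the mean of so few arrays depend on each other. With the replicate number as a block, 12 members rose and 6 fell, Mcm6 being the call lost (adjusted p = 0.11), Orc1, Orc2 and Ube2s did not pass (adjusted p = 0.055, 0.053 and 0.051), and 5810 of all genes passed against 6666. Of 650 recomputed values of members, 604 kept their direction and side of the threshold, 16 lost the call, 9 gained it and 21 changed sign. No called member changed sign. After quantile normalization Cdc45 had -0.0084. The other changes of sign came from leaving out an array, with log2 fold changes of -0.033 to 0.0097 for Mcm2, -0.077 to 0.044 for Cdc6, -0.014 to 0.056 for Cdc45, -0.059 to 0.16 for Pola1, -0.0026 to 0.039 for Tyms, -0.10 to 0.043 for Tk1, -0.011 to 0.058 for Ccnd3, -0.045 to 0.034 for Ccne2, -0.041 to 0.057 for Top2a and -0.045 to 0.11 for Birc5, and none of these genes passed the test. The cause of these changes was not tested.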
